A study of Rattus norvegicus with 18 samples.

Results

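Matrix metalloproteases (MMPs) and the plasminogen system were described at the RNA level in the rat hippocampus through 9 genes. These were the metalloprotease genes Mmp9, Mmp3, Mmp2, Mmp11 and Mmp14, the plasminogen activator genes Plau and Plat, the receptor gene Plaur and the inhibitor gene Timp2. They were taken by symbol from a table of 17455 genes, and all 9 were present and passed the filter on low counts that kept 13338 genes. The list was chosen by their measured changes in an earlier analysis of these libraries. The changes within the kainic acid and kindling models given here, and their difference, therefore describe the 9 genes and are not independent evidence about them.

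Left hippocampi were taken from Sprague-Dawley rats, adult and male, with temporal lobe epilepsy modelled in 2 ways, and their polyadenylated RNA was sequenced. For the kainic acid (KA) model, electrodes were implanted and systemic kainic acid, a glutamate receptor agonist, was injected in rising amounts until status epilepticus. In the kindling (KI) model, electrical stimuli were delivered repeatedly through hippocampal electrodes until the rats were fully kindled. Tissue was taken 24 hours after the last seizure. The KA model gave 7 sham and 3 libraries labelled 3 Class V, and the KI model gave 4 of each kind. Class V is the name of a grade of convulsive seizure, but what 3 Class V stands for in each model, and what the sham procedures were, is not given in the sources used here. No genetic modification is named for any group. The labels do not state for each library that it came from a separate rat, so the spread between libraries may be partly technical.

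MMPs are zinc proteases that are made as inactive precursors and cut proteins of the extracellular matrix and the cell surface. Urokinase (Plau) and tissue plasminogen activator (Plat) cut plasminogen to plasmin, which degrades fibrin and matrix proteins and can activate MMP precursors. The tissue inhibitors of metalloproteases (TIMPs) block active MMPs. In the hippocampus Mmp9 and Plat are known from work on synaptic plasticity, and Mmp9, Plau and Plaur from work on seizures.

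Promoter sequence was found for 5 of the 9 genes in a RefSeq table of the rat assembly GRCr8 (Mmp3, Plaur, Mmp11, Plau and Timp2), and Mmp9, Mmp2, Mmp14 and Plat had no entry in it. Each window ran from 250 bases before to 50 bases after the gene's start and was searched on both strands. The motif TGANTCA, bound by AP-1 (dimers of Fos and Jun proteins), was present in 7.33% of all 33469 windows and in those of Mmp3 and Plaur. It is shown for these 2 genes because members of the AP-1 family were measured in the same libraries. Capitals mark the match, which begins 71 bases before the start in Mmp3 and 83 bases before it in Plaur, and each run covers the 250 bases before the start, written 5′ to 3′.
Mmp3, chr8:12925031-12925280, plus strand: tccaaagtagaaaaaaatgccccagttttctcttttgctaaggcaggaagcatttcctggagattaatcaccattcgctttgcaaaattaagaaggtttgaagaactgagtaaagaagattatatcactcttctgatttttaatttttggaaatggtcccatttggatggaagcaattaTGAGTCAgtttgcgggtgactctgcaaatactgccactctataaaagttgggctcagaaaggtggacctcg
Plaur, chr1:89181113-89181362, plus strand: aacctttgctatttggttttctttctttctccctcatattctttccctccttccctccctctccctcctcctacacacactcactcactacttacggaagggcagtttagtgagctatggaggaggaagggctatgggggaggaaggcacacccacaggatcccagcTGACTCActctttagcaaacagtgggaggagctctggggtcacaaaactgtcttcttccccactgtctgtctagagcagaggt

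The GC box GGGCGG, a motif of Sp family factors, was present in 33.06% of all windows and in those of Mmp11, Plau and Timp2. Mmp11 and Plau are shown because their changes differed between the models, with the matches in capitals (CCGCCC is the same motif on the other strand). The Mmp11 window held 4 matches, of which 3 lie in the stretch printed, and that of Plau held 3.
Mmp11, chr20:12730034-12730283, plus strand: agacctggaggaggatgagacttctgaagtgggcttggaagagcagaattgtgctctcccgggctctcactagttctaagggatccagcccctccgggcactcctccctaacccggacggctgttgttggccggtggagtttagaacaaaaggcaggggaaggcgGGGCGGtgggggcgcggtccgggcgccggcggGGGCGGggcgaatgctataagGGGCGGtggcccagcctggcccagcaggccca
Plau, chr15:3511988-3512237, minus strand: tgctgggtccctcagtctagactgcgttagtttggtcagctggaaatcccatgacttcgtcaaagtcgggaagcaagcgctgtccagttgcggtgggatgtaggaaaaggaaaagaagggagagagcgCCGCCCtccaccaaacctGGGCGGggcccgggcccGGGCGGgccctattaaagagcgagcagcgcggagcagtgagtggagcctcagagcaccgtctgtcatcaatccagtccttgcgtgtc

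Of the other motifs searched, AGGAAG, the core recognised by ETS family factors, was in 34.51% of all windows and in those of Mmp3 and Plaur. The cyclic AMP response element TGACGTCA was in 1.83% of all windows and in 0 of the 5. A match is a description of letters in a window and no evidence that a factor binds there.

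Levels below are CPM, the count scaled to a common library total after a TMM normalisation factor, and each value is 1 library. Total counts ran from 30925368 to 49943021 per library. A gene is said to have risen or fallen only where edgeR's quasi-likelihood test, fitted on all 18 libraries, gave a Benjamini-Hochberg adjusted p under 0.05 over all 13338 genes. The library labelled KA sham 1 stood apart in Mmp9 and Mmp3. Across genes its log2 levels had a mean correlation of 0.993 with the KI 3 Class V libraries and of 0.978 with the other KA shams. KA sham 6 (0.989 against 0.980) and KA sham 5 (0.984 against 0.982) leaned the same way to a lesser degree, and KA shams 2, 3, 4 and 7 did not. KI sham 1 had the lowest such correlation of the 18 libraries with both groups, 0.942 with KI 3 Class V and 0.952 with the KA shams. Whether the label of KA sham 1 is right could not be settled from the files, so KA sham 1 below means the library with that label. The Mmp9 and Mmp3 values that rest on it are given with and without it. In KI sham 2, KI 3 Class V 1 and KA sham 4 a set of 6 ribosomal RNA-like genes took 16.4%, 16.3% and 9.67% of counts, against 0.571% to 2% in the other libraries. The labels name no batch.

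**Figure D1:**
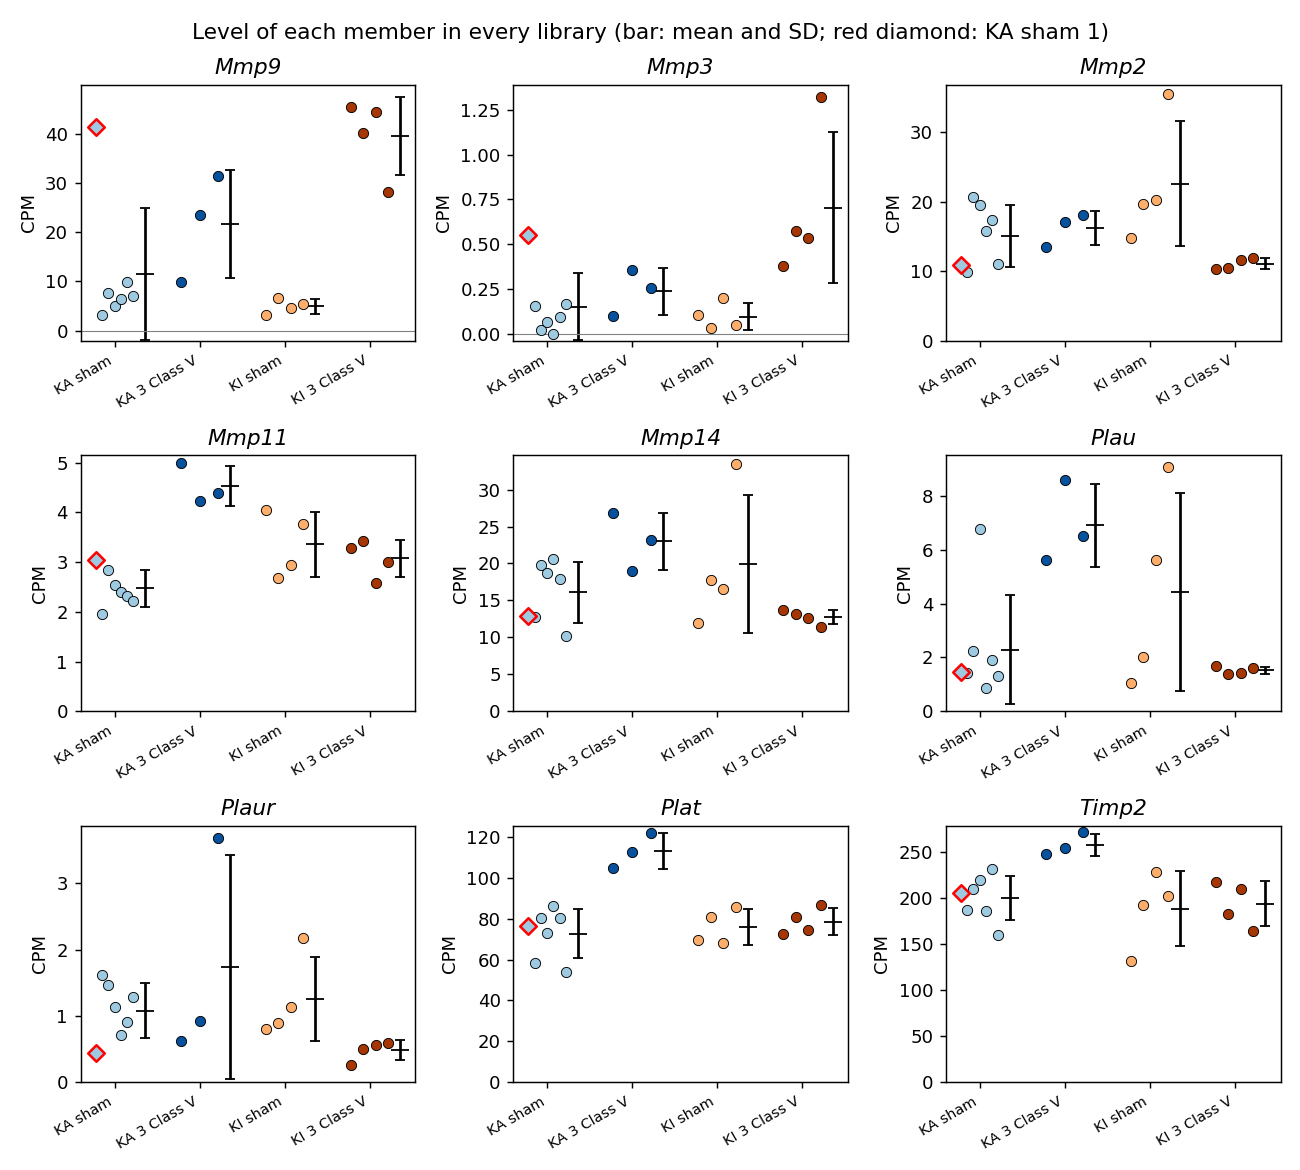
Level (CPM, linear axes) of each of the 9 genes in every library of the 4 groups, with the group mean and SD as a bar and the library labelled KA sham 1 as a red-edged diamond. Mmp9 lay between 28.2 and 45.5 in KI 3 Class V and between 3.18 and 6.63 in KI sham, with KA sham 1 at 41.4.

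In kindled hippocampus Mmp9 rose 7.98-fold and Mmp3 rose 7.14-fold, while Mmp2, the other gelatinase, fell 2.03-fold. The remaining 6 genes were not called. Of the 9, 2 were higher and 1 was lower by the test, beside 4.74% of all genes tested called higher and 5.25% called lower in this model. The median log2 change was -0.13 over the 9 genes and -0.04 over all genes tested.

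Mmp9 encodes gelatinase B, which cuts denatured collagen and synaptic adhesion proteins. Its level was 3.18, 6.63, 4.55 and 5.43 CPM in the 4 KI shams and 45.5, 40.1, 44.3 and 28.2 CPM in the 4 KI 3 Class V libraries. The groups did not overlap, and the lowest kindled library was above 4 times the highest sham. The log2 change was 3.00 ± 0.65 (SE; edgeR adjusted p = 0.0247), and it was 1.97 (adjusted p = 0.0908) with a ribosomal protein gene score as covariate.

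Mmp3 encodes stromelysin 1, a protease of broad specificity that can activate the Mmp9 precursor. It was near the limit of detection in the KI shams, at 0.104, 0.0319, 0.197 and 0.0468 CPM, from 1 to 8 counts a library. The KI 3 Class V libraries held 0.378, 0.576, 0.535 and 1.32 CPM, from 12 to 56 counts. All 4 kindled libraries were above all 4 shams, and KI 3 Class V 4 was the highest of the 18 libraries. Its log2 change was 2.84 ± 0.81 (SE; edgeR adjusted p = 0.0416).

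Mmp2, or gelatinase A, is made constitutively by many cell types and is activated at the cell surface. It stood at 14.8, 19.7, 20.3 and 35.6 CPM in the KI shams and at 10.3, 10.5, 11.7 and 12.0 CPM in KI 3 Class V. The groups did not overlap, and KI sham 4 was far above the other shams. The log2 change was -1.02 ± 0.26 (SE; edgeR adjusted p = 0.0331), and it was -0.75 without KI sham 4 and -0.65 (adjusted p = 0.0736) without KI sham 3 and KI sham 4. The latter also held 636 CPM over the 6 fibroblast and meningeal markers, against 121 to 341 in the 17 others, and 969 CPM over 5 choroid plexus markers, against 13.9 to 619. The part of these tissues in the Mmp2 result was not tested.

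Mmp14, the membrane-type MMP that together with Timp2 activates the Mmp2 precursor, also had a lower mean in KI 3 Class V than in KI sham, without a call. The KI shams lay at 12.0, 17.8, 16.5 and 33.5 CPM and the KI 3 Class V libraries at 13.7, 13.2, 12.7 and 11.4 CPM. KI sham 1 was inside the kindled range, so the groups overlapped. The log2 change was -0.65 ± 0.27 (SE; edgeR adjusted p = 0.0988), and it was -0.31 without KI sham 4. Over all 18 libraries Mmp2 and Mmp14 had a Pearson r of 0.776 on log2 CPM, and of 0.811 after group means were removed. This is the highest within-group value of the 36 pairs among the 9 genes. All points share the libraries and their tissue makeup.

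The urokinase pair was lower in kindled libraries without passing the test. Plau, the urokinase gene, was at 1.04, 2.01, 5.63 and 9.06 CPM in the KI shams and at 1.67, 1.38, 1.44 and 1.61 CPM in KI 3 Class V. KI sham 2, KI sham 3 and KI sham 4 were above all kindled libraries and KI sham 1 was below them. The log2 change of -1.55 ± 0.61 (SE; edgeR adjusted p = 0.0880) came to -0.03 when KI sham 3 and KI sham 4 were left out together. Plaur, which anchors urokinase at the cell surface, was at 0.795, 0.893, 1.13 and 2.18 CPM in the KI shams. In KI 3 Class V it was at 0.252, 0.501, 0.563 and 0.591 CPM, from 8 to 25 counts. These groups did not overlap, yet the log2 change of -1.39 ± 0.53 had an edgeR adjusted p of 0.0834.

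Mmp11, Plat and Timp2 were close to their shams in the kindling model. Mmp11, or stromelysin 3, whose precursor is activated inside the cell by furin, was at 4.05, 2.68, 2.95 and 3.77 CPM in the KI shams and at 3.28, 3.43, 2.59 and 3.00 CPM in KI 3 Class V. Plat was at 69.4, 81.1, 68.2 and 86.0 CPM in the KI shams and at 72.6, 81.0, 74.4 and 86.7 CPM in KI 3 Class V. Timp2 was at 131, 193, 229 and 202 CPM in the KI shams and at 218, 183, 210 and 165 CPM in KI 3 Class V. For each of the 3 genes the groups overlapped. The log2 changes were -0.13 ± 0.17 for Mmp11, 0.05 ± 0.14 for Plat and 0.04 ± 0.15 for Timp2 (SE; edgeR adjusted p = 0.600, 0.823 and 0.863).

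Complete separation of the 4 kindled from the 4 sham libraries was common in this model. It held upward for 12.1% and downward for 8.07% of all genes tested, and among the 9 for Mmp9 and Mmp3 upward and Mmp2 and Plaur downward. The calls depended on single libraries. Without KI 3 Class V 1, 2 or 3 the calls over all genes came to 1 higher and 8 lower in place of 632 and 700, and without KI sham 3 to 49 and 84. Under each of these 4 omissions 0 of the 9 genes were called. Mmp3 also lost its call without KI sham 1, KI sham 2, KI 3 Class V 4 or KA 3 Class V 2. The log2 changes themselves ranged over all single omissions from 2.84 to 3.17 for Mmp9, from 2.31 to 3.52 for Mmp3 and from -1.18 to -0.75 for Mmp2, and adjusted p reached 0.0897, 0.100 and 0.105.

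**Figure D2:**
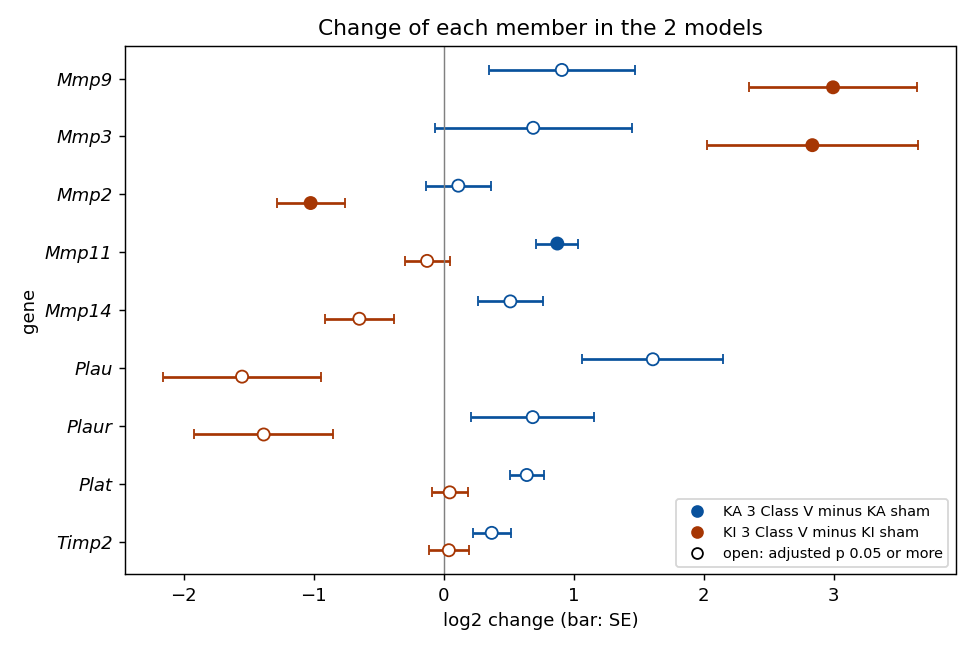
Log2 change with its SE (horizontal axis) of each of the 9 genes in the KA (blue) and KI (orange-brown) models, filled where the edgeR adjusted p was under 0.05. All 9 KA values lie to the right of 0, while the KI values spread from -1.55 for Plau to 3.00 for Mmp9.

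After kainic acid all 9 fitted changes were positive, with a median of 0.68 against -0.01 over all genes tested, and Mmp11 alone was called. It rose 1.83-fold. This 1 of 9 stands beside 0.172% of all genes tested called higher and 0% called lower. The groups separated completely, upward, for Mmp11, Plat and Timp2, as they did for 2.95% of all genes tested, with 2.7% separating downward. At an unadjusted p under 0.05 the count was 4 of 9, all higher (Mmp11, Plat, Plau and Timp2), beside 6.34% of all genes tested higher and 3.59% lower.

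Mmp11 was at 3.04, 1.96, 2.84, 2.53, 2.40, 2.32 and 2.22 CPM in KA shams 1 to 7, a range of 1.96 to 3.04 with a median of 2.40. The 3 KA 3 Class V libraries were at 4.995, 4.23 and 4.40 CPM, all above every sham and above every KI library. On the log2 scale the change was 0.87 ± 0.16 (SE; edgeR adjusted p = 0.0312). The change stayed between 0.80 and 0.92 over all single omissions. The call was lost without KA sham 5, 6 or 7 or any KA 3 Class V library, with adjusted p up to 0.200.

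Plat, the tissue activator that neurons and vessels release, was at 53.7 to 86.4 CPM in the 7 KA shams, with a median of 76.6. The KA 3 Class V libraries stood at 105, 113 and 122 CPM, above all 15 other libraries. The log2 change of 0.64 ± 0.13 (SE; edgeR adjusted p = 0.0634) missed the threshold and passed it without KA sham 1, KA sham 5, KI sham 1, KI sham 3 or KI sham 4 (adjusted p from 0.0323 to 0.0476). It also passed with DESeq2, limma-voom, RLE factors and the ribosomal protein score (adjusted p from 0.00139 to 0.0499). Its range over all single omissions was 0.57 to 0.69.

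Timp2 ran from 159 to 231 CPM in the KA shams, with a median of 205, and reached 248, 255 and 272 CPM in KA 3 Class V. These 3 were the highest Timp2 values of the 18 libraries, with a log2 change of 0.37 ± 0.15 (SE; edgeR adjusted p = 0.360). Mmp2, which Timp2 inhibits, lay at 9.91 to 20.7 CPM in the KA shams, with a median of 15.9, and at 13.5, 17.1 and 18.2 CPM in KA 3 Class V, inside the sham range. Its log2 change was 0.11 ± 0.25 (SE; edgeR adjusted p = 0.926). Mmp14 was at 10.1 to 20.6 CPM in the shams, with a median of 17.9, and at 26.8, 19.03 and 23.2 CPM after kainic acid. KA 3 Class V 2 lay inside the sham range, and the log2 change was 0.51 ± 0.25 (SE; edgeR adjusted p = 0.524).

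Plau had the largest fitted change of the 9 genes after kainic acid. The shams were at 1.46, 1.44, 2.24, 6.77, 0.849, 1.89 and 1.31 CPM and the KA 3 Class V libraries at 5.61, 8.60 and 6.49 CPM. KA sham 4 was as high as the seizure libraries and the other 6 shams were below all 3 of them. The log2 change was 1.61 ± 0.54 (SE; edgeR adjusted p = 0.255), and without KA sham 4 it was 2.17 (adjusted p = 0.0389). Plaur was at 0.442 to 1.62 CPM in the shams, with a median of 1.13, and at 0.615, 0.916 and 3.69 CPM in KA 3 Class V. KA 3 Class V 3 was the highest of the 18 libraries and the other 2 lay inside the sham range. The log2 change of 0.68 ± 0.47 (SE; edgeR adjusted p = 0.661) turned to -0.49 without KA 3 Class V 3.

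Mmp9 was at 41.4 CPM in KA sham 1 and at 3.18, 7.58, 4.97, 6.48, 9.91 and 7.01 CPM in the other 6 KA shams. The KA 3 Class V libraries were at 9.87, 23.5 and 31.5 CPM. KA sham 1 was above all 3 of them and inside the KI 3 Class V range. With it the log2 change was 0.91 ± 0.56 (SE; edgeR adjusted p = 0.626). Without it the log2 change was 1.72 ± 0.32 (SE; edgeR adjusted p = 0.0321). That fit called 0.315% of all genes higher and 0.09% lower. Of the 18 single omissions it was the only 1 with a call for Mmp9 in KA. KA sham 1 was singled out partly by its Mmp9 level, so this p-value is not independent of the choice to leave it out. Without KA sham 1, KA 3 Class V 1 still lay just under KA sham 6, so the groups overlapped. In those libraries 3.67% of all genes separated upward. Mmp3 was at 0 to 0.552 CPM in the KA shams, the highest again KA sham 1, and at 0.0984, 0.355 and 0.253 CPM in KA 3 Class V. KA sham 5 held 0 counts, which allows a level of up to 0.0728 CPM by counting error alone. The log2 change of Mmp3 was 0.69 ± 0.76 (SE; edgeR adjusted p = 0.807), and 1.52 ± 0.68 (adjusted p = 0.407) without KA sham 1.

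The 2 models have separate shams, so the change after kainic acid can be set against the change after kindling. The difference was called for Mmp11 and Plau, both higher after kainic acid, beside 3.15% of all genes tested called higher and 0.652% called lower. Plau differed by 3.16 ± 0.82 on the log2 scale (SE; edgeR adjusted p = 0.0399). That value was 1.63 (adjusted p = 0.179) without KI sham 3 and KI sham 4, and the call was lost under 14 of 18 single omissions. Mmp11 differed by 1.002 ± 0.24 (SE; edgeR adjusted p = 0.0294), with the call lost without any 1 of the KA 3 Class V libraries or KI 3 Class V 1, 3 or 4. For Mmp9 the difference was -2.09 ± 0.87 and for Mmp3 -2.15 ± 1.14, that is, smaller after kainic acid, without a call (edgeR adjusted p = 0.185 and 0.294). Without KA sham 1 these differences were -1.26 and -1.29 (adjusted p = 0.176 and 0.518). The other 5 differences were positive, from 0.33 ± 0.21 for Timp2 to 2.07 ± 0.71 for Plaur, with adjusted p from 0.0878 to 0.393. The median over the 9 genes was 1.002, against 0.01 over all genes tested.

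Between the sham groups 0 of the 9 genes differed by edgeR (0% of all genes tested called higher in KA sham, 0.0075% lower). DESeq2 and limma-voom also called 0 of 9, with 0.0827% and 3.08% of all genes called. Before adjustment 3 had p under 0.05, beside 4.05% of all genes tested higher in KA sham and 4.58% lower: Mmp9 higher in KA sham by 1.22 ± 0.57, Mmp2 lower by 0.59 ± 0.23 and Mmp11 lower by 0.44 ± 0.15 on the log2 scale (edgeR adjusted p = 0.564 for each). The Mmp9 difference was 0.39 without KA sham 1.

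Ordered by group mean, Mmp9 was at 39.5 ± 7.89 CPM in KI 3 Class V (SD, n = 4), 21.6 ± 10.9 in KA 3 Class V (n = 3), 11.5 ± 13.4 in KA sham (n = 7; 6.52 ± 2.30 without KA sham 1, n = 6) and 4.95 ± 1.45 in KI sham (n = 4). Neighbours in that order overlapped in every case. Plau ran from 6.90 ± 1.54 CPM in KA 3 Class V through 4.43 ± 3.66 in KI sham and 2.28 ± 2.03 in KA sham to 1.52 ± 0.138 in KI 3 Class V, again with overlap between neighbours. Plat was at 113 ± 8.68 CPM in KA 3 Class V and between 72.7 ± 12.2 and 78.7 ± 6.44 in the other 3 groups, whose ranges overlapped. By coefficient of variation each of the 9 genes varied less among the KI 3 Class V libraries than among the KI shams, most of all Plau, Mmp14 and Mmp2. Across genes each KI 3 Class V library had a mean correlation of 0.991 to 0.994 with the others of its group. The spread of all genes tested was not set beside these values, so a lower spread is not known to be particular to the 9. The coefficient of variation of Plau was 9.06% in KI 3 Class V and 82.6% in KI sham, that of Mmp14 7.71% and 46.9%, and that of Mmp2 7.46% and 39.8% (n = 4 each). Without KI sham 4 the sham values were 83.7%, 19.6% and 16.6% (n = 3). That of Plaur was then 18.3%, under its 32.4% in KI 3 Class V.

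**Figure D3:**
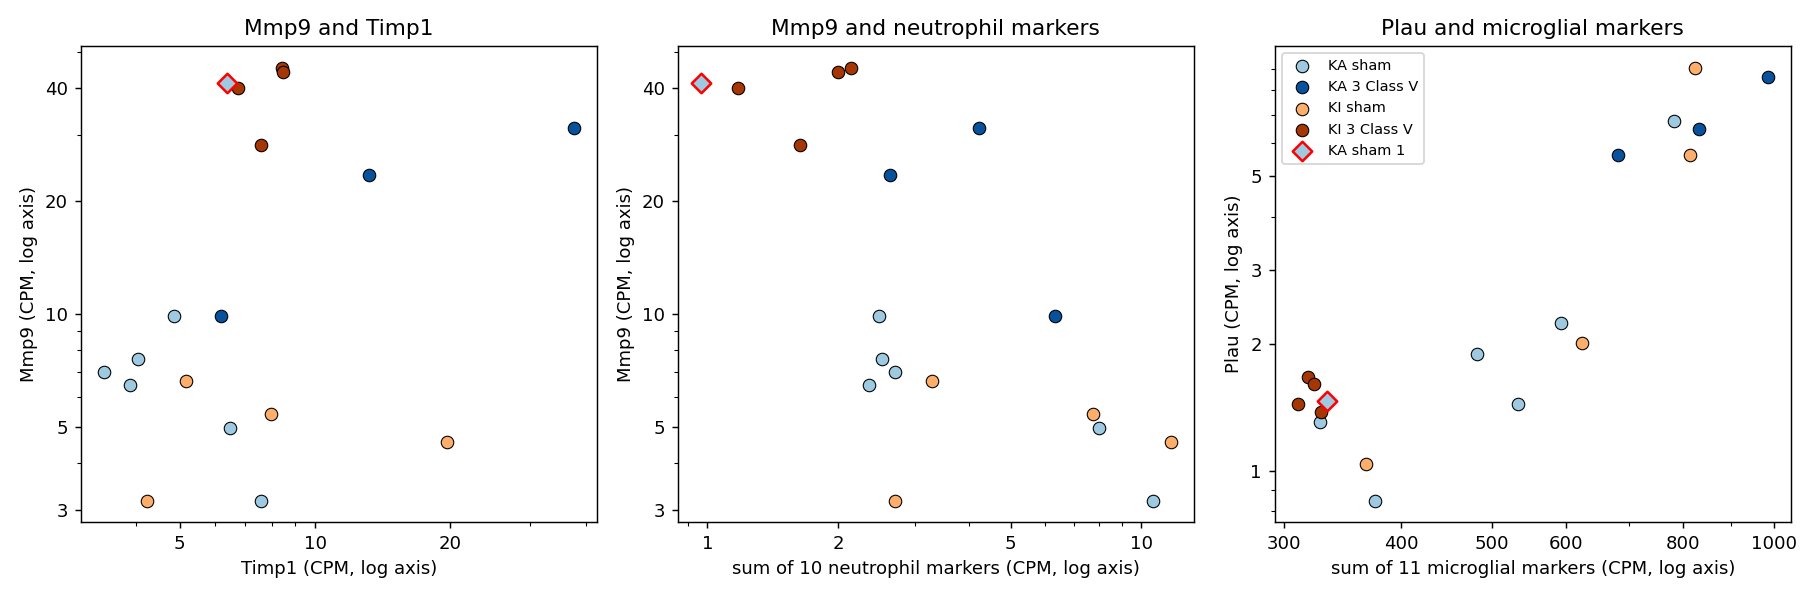
Mmp9 against Timp1 (left), Mmp9 against the summed level of 10 neutrophil markers (middle) and Plau against the summed level of 11 microglial and macrophage markers (right), 1 point per library, all in CPM on log axes. The KI 3 Class V libraries and KA sham 1 combine Mmp9 of 28.2 to 45.5 with marker sums of 0.967 to 2.14, and the libraries with Plau above 5 have microglial sums of 682 to 984.

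The balance of protease to inhibitor transcripts was followed as a ratio of CPM within each library, compared only between libraries. Mmp9 to Timp1, its secreted inhibitor, was 5.07 ± 0.946 in KI 3 Class V (SD, n = 4), from 3.73 to 5.95, and 0.737 ± 0.431 in KI sham (n = 4), from 0.231 to 1.28. In KA 3 Class V it was 1.41 ± 0.503 (n = 3). KA sham 1 had 6.52 and the other 6 KA shams had 0.419 to 2.07. High Mmp9 stood with high Timp1 in KA 3 Class V 3 (37.6 CPM Timp1) and with Timp1 of 6.74 to 8.50 CPM in the kindled libraries. Mmp2 to Timp2 was 0.0582 ± 0.0105 in KI 3 Class V and 0.120 ± 0.0387 in KI sham, and did not overlap between them (0.0474 to 0.0727 and 0.0887 to 0.176).

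Neutrophils carry Mmp9 and microglia and macrophages can carry Plau and Plaur, so their markers were read in the same libraries. In bulk tissue fewer cells of a type and less RNA per cell cannot be told apart. The 10 neutrophil markers summed to 1.18 to 2.14 CPM in KI 3 Class V, where Mmp9 was highest, and to 0.967 in KA sham 1, against 2.70 to 11.7 in KI sham, 2.64 to 6.32 in KA 3 Class V and 2.35 to 10.6 in the other KA shams. Within this list Ltf was at 0 in all 18 libraries and Elane was at most 0.0612 CPM. Mpo was at most 0.252 CPM, in KI 3 Class V 1, and S100a9 reached 3.21 CPM, in KA sham 2. Of the 6 neutrophil markers tested, Fcnb fell in KI and 0 were called in KA. In KI 5 of the 6 fitted changes were negative, and that of Ngp was positive (log2 change 0.67, edgeR adjusted p = 0.595). Fcnb made up 8.31 of the 11.7 CPM in KI sham 3. In KI sham 4, Fcnb at 3.89 and Mmp8 at 2.74 CPM were part of 7.73. The highest KI sham sums therefore rest largely on Fcnb and Mmp8. Mmp8 is counted both here and among the other MMPs.

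The 11 microglial and macrophage markers summed to 311 to 328 CPM in KI 3 Class V, 367 to 823 in KI sham, 682 to 984 in KA 3 Class V and 328 to 782 in KA sham. In KI 5 of the 11 fell (Aif1, Tmem119, Cd68, Trem2 and Tyrobp) and 0 rose, beside 5.25% of all genes tested called lower and 4.74% called higher. In KA 0 of the 11 were called, with all 11 fitted changes positive. Within the shams the libraries with high Plau were those with high sums: KI sham 3 and 4 (814 and 823 CPM) and KA sham 4 (782 CPM). The part of these cells in the Plau and Plaur values was not tested. In the difference between models, where Plau was called, 6 of the 11 were called higher in KA (Tmem119, Csf1r, Itgam, Cd68, Trem2 and Tyrobp). Over all genes tested the share called higher was 3.15%. Calls of marker genes were not followed with libraries left out. Without KI 3 Class V 1, 2 or 3 only 8 genes in all were called lower in KI.

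Other markers also moved with the kindled libraries. The 4 neuronal markers summed to 2345 to 3061 CPM in KI 3 Class V and 1849 to 2148 in KI sham, with 2589 in KA sham 1, 1463 to 2926 in the other KA shams and 1867 to 2092 in KA 3 Class V. The 5 oligodendrocyte markers summed to 8863 to 12630 CPM in KI 3 Class V, 14430 to 19310 in KI sham, 12270 to 12510 in KA 3 Class V and 11250 in KA sham 1, the lowest of the KA shams. Among single markers, Syt1 (neurons), Nr3c2 (pyramidal cells) and Aqp4 (astrocytes) rose in KI, and C1ql2 (granule cells) and Cldn5 (endothelium) fell. They do not stand for their cell types. Positive and negative KI changes numbered 4 and 0 among neuronal, 4 and 1 among pyramidal and 3 and 2 among astrocyte markers. The numbers were 1 and 2 among granule cell and 4 and 2 among endothelial and pericyte markers. Prox1 (granule cells) had a positive KI change of 1.07 (edgeR adjusted p = 0.0757). Gfap (astrocytes) rose in KA. The part of these cells in the Mmp9 values was not tested. The 3 granule cell markers in the table were detected in every library, at a sum of 113 to 209 CPM.

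**Figure D4:**
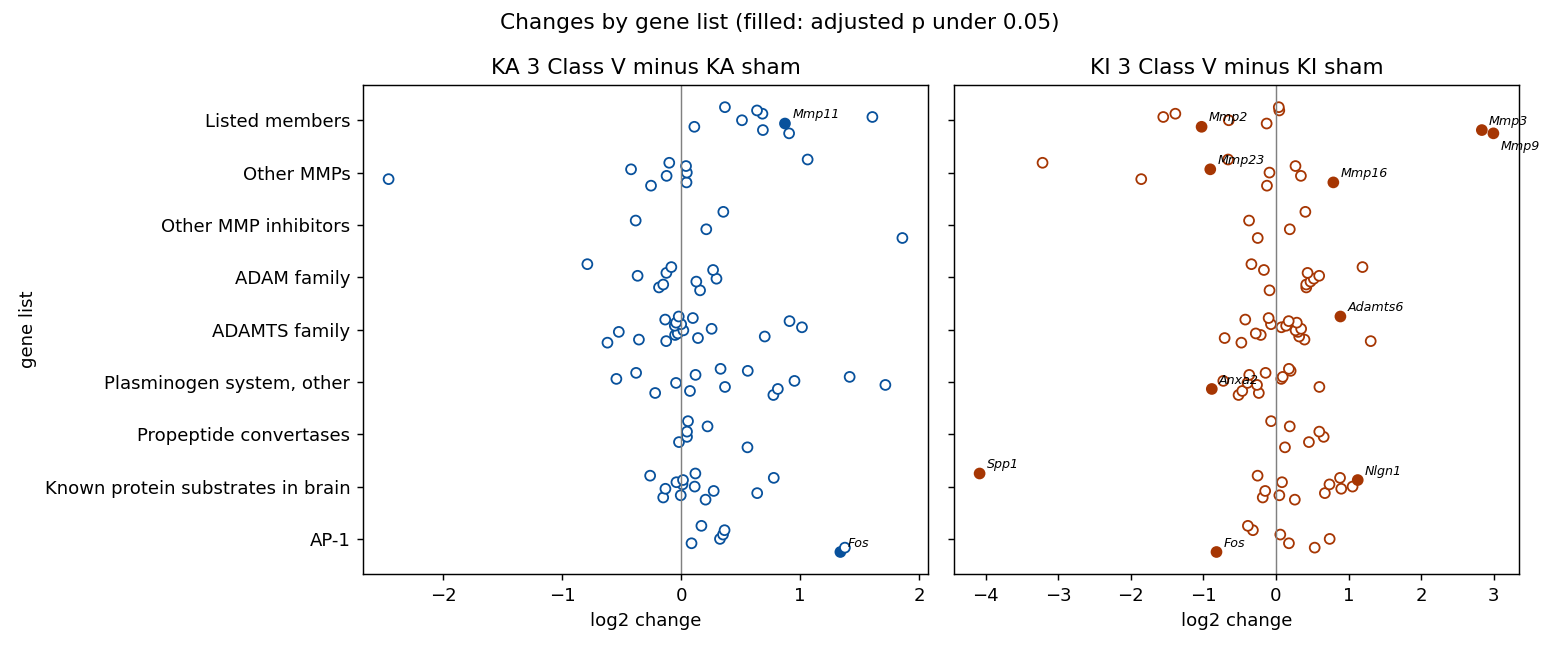
Log2 change of every tested gene of the 9-gene list and of 8 related lists in the KA (left) and KI (right) models, filled and named where the edgeR adjusted p was under 0.05. Filled points are Mmp11 and Fos on the left, and Mmp9, Mmp3, Mmp2, Mmp16, Mmp23, Adamts6, Anxa2, Nlgn1, Spp1 and Fos on the right.

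Among the other MMPs, 9 of 16 passed the filter. In KI Mmp16, a membrane-type MMP, rose and Mmp23 fell, and in KA 0 of 9 were called. Mmp16 was at 12.7 to 23.6 CPM in KI sham and at 28.4 to 32.6 in KI 3 Class V (log2 change 0.79 ± 0.20, edgeR adjusted p = 0.0325). Mmp23 was at 2.33 to 5.91 CPM in KI sham and at 1.89 to 2.05 in KI 3 Class V (log2 change -0.90 ± 0.24, edgeR adjusted p = 0.0360). The KA change exceeded the KI change for Mmp19 by 1.72 on the log2 scale (edgeR adjusted p = 0.0472). The median log2 change of the list was -0.10 in KA and -0.12 in KI.

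Few adamalysin genes were called. Of 10 tested ADAM genes 0 were called in either model, with a median log2 change of -0.10 in KA and 0.43 in KI, against -0.01 and -0.04 over all genes tested. The smallest p-values were those of Adam23, Adam11 and Adam1a in KI (log2 changes 1.19, 0.60 and 0.42, edgeR adjusted p = 0.0674, 0.0791 and 0.0971). Of 18 ADAMTS and ADAMTS-like genes, Adamts6 rose in KI (log2 change 0.89 ± 0.27, edgeR adjusted p = 0.0465) and 0 were called in KA. Adamts6 levels of 2.67 to 4.31 CPM in KI 3 Class V were above the 1.47 to 2.53 CPM of KI sham. Adamtsl4, Adamts1 and Adamts9 had KA changes of 1.02, 0.91 and 0.70 without a call (edgeR adjusted p = 0.101, 0.154 and 0.243). Their KA 3 Class V libraries were above every KA sham, as for 2.95% of all genes tested. Of the 18, 8 KA changes were positive and 10 negative.

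Of the 4 other MMP inhibitors 0 were called. Timp1 went from 3.39 to 7.59 CPM in the KA shams to 6.18, 13.1 and 37.6 CPM in KA 3 Class V (log2 change 1.86 ± 0.44, edgeR adjusted p = 0.101). In KI its change was -0.25 ± 0.48. Reck, a membrane-bound MMP inhibitor, had changes of 0.36 and 0.41 in KA and KI, and Timp4 of -0.38 and -0.37.

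In the rest of the plasminogen system, 14 of 17 genes were tested. Anxa2, which binds Plat and plasminogen at the cell surface, fell in KI (log2 change -0.88 ± 0.22, edgeR adjusted p = 0.0326), from 15.4 to 33.1 CPM in sham to 11.7 to 14.5. In KA its levels were 27.0, 28.1 and 43.5 CPM against 14.2 to 21.7 in sham, without a call (0.81 ± 0.21, edgeR adjusted p = 0.109). The 2 changes differed by 1.70 on the log2 scale (adjusted p = 0.0136). Plg, the plasminogen gene itself, was at 0.0630 to 0.394 CPM in all 18 libraries. The list's median log2 change was 0.35 in KA and -0.25 in KI.

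Of the 6 propeptide convertases, which release MMPs such as Mmp11 and Mmp14 from their precursors, 0 were called. Furin had a log2 change of 0.56 ± 0.19 in KA (edgeR adjusted p = 0.253), and Pcsk2 and Pcsk5 had 0.66 and 0.60 in KI (adjusted p = 0.0767 and 0.124). Of 13 tested genes for brain proteins known to be cut by these proteases, Nlgn1 rose and Spp1 fell in KI, and 0 were called in KA. Nlgn1, a postsynaptic adhesion protein cut by Mmp9, was at 8.75 to 34.1 CPM in KI sham and 43.2 to 60.0 in KI 3 Class V (log2 change 1.13 ± 0.33, edgeR adjusted p = 0.0423). Spp1, or osteopontin, was at 3.46, 46.3, 373 and 249 CPM in KI sham and at 7.11 to 11.5 CPM in KI 3 Class V (log2 change -4.08 ± 1.04, edgeR adjusted p = 0.0329). Its groups overlapped, since KI sham 1 was below every kindled library.

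Of the 7 AP-1 genes, Fos was called in both models in opposite directions. It rose in KA, to 17.5, 14.2 and 21.9 CPM from 5.89 to 9.20 in sham (log2 change 1.34 ± 0.18, edgeR adjusted p = 0.00182). It fell in KI, to 3.24 to 5.99 CPM from 6.73 to 10.2 (log2 change -0.82 ± 0.20, edgeR adjusted p = 0.0301). The 2 changes differed by 2.16 (adjusted p = 0.00131), and this call and that in KA held under all 18 single omissions. Mmp3 and Plaur, the 2 genes with an AP-1 match among the 5 with promoter sequence, had KI changes of 2.84 (called) and -1.39 (not called). Mmp9, Mmp2, Mmp14 and Plat had no window to search. The 7 related genes called in KI (Mmp16, Mmp23, Adamts6, Anxa2, Nlgn1, Spp1 and Fos) each lost their call without KI 3 Class V 1, 2 or 3, where few genes were called at all. Adamts6 kept its call under only 6 of 18 single omissions and Nlgn1 under 8, against 12 or 13 for the rest. Their losses included omissions of KA libraries and of KI shams. Without KI sham 3 and KI sham 4 together the KI changes were -0.38 for Anxa2 and -1.35 for Spp1, and without KI sham 1 that of Mmp23 was -0.59, all without a call. With the ribosomal protein score as covariate those of Mmp16 and Nlgn1 were 0.44 and 0.56, also without a call. Mmp19 lost its call under 14 of 18 single omissions.

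Over log2 CPM in the 18 libraries, the genes most like Mmp9 among 11222 ranked were Dgka (Pearson r 0.937), Efr3a (0.935), Mllt3 (0.934), Dclk1 (0.931) and Abr (0.924). The lowest were Cdkn1c (-0.918), Marcksl1 (-0.912) and Ntf3 (-0.903). After group means were removed these values were 0.798 to 0.884 for the first 5 and -0.793 to -0.731 for the last 3. Without KA sham 1 they were 0.919 to 0.945 and -0.921 to -0.890. The 8 genes were picked for this pattern, and all points share libraries, depth and tissue makeup. Of the other 8 listed genes, Mmp3 was nearest to Mmp9 (r 0.749, and 0.416 after group means were removed), and Plaur furthest (-0.458 and -0.188).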

How the data were processed

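Sequencing counts per gene were taken as deposited by the authors: whole-number counts with no normalization, 1 column per library, for 18 libraries and 17455 gene symbols, with 0 columns left unmapped. Per the labels, libraries were made from polyadenylated RNA with a NEBNext Ultra II kit, with single-end reads of 110 bases. The submitters' processing notes name the aligner HISAT2 and the counter featureCounts, with FastQC, Trimmomatic and DESeq2, and the genome build rn6. The sources used here do not give versions, annotation, strand setting or the handling of shared reads. Reads from overlapping or antisense genes could therefore not be told apart.

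The 9 genes and all related lists were chosen with earlier results of these data known. Tests used edgeR 4.0.16 in R 4.3.3 (filterByExpr, TMM, robust quasi-likelihood F test on group means, two-sided) over 13338 genes and 18 libraries. The 4 contrasts were 3 Class V minus sham in each model, the difference of these changes, and KA sham minus KI sham. SE was obtained as |log2 change| over the root of the F statistic, and a prior count of 2 entered log2 CPM. The code was tested on simulated counts. All 9 genes are named, as is each related gene called in any contrast. In lists with 0 called, the 3 smallest p-values in KA or KI are named, and for likeness the 5 highest and 3 lowest r with Mmp9 among genes with a mean log2 CPM of at least 1. Plg, Adamtsl4, Adamts1, Adamts9 and the marker genes were named after their values were seen. Sham and 3 Class V libraries with the same replicate number had correlations of deviations from group means of -0.166 to 0.00907. Libraries with unlike numbers were not compared, so whether the numbers pair libraries is not known. Protein sequences were not analysed here. Alternatives were DESeq2 1.42.0, limma 3.58.1 (voom), other factors and filters, each model alone, and libraries left out.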

Additional observations from a re-analysis of the deposited data

Results flagged for a closer look

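Each of the 9 genes was screened in the 3 groups of 4 to 7 libraries for a library far from the rest, 27 checks in all, and chance alone flags about 1 in 20. Mmp9 in KA sham 1 was 41.4 CPM, with the other 6 KA shams at 3.18 to 9.91. Mmp3 in KA sham 1 was 0.552 CPM, from 20 counts, with the others at 0 to 0.167. Plau in KA sham 4 was 6.77 CPM, with the others at 0.849 to 2.24. In 2 genes the change differed between models by the test of the difference itself: Mmp11 by 1.002 and Plau by 3.16 on the log2 scale, higher after kainic acid. The cause of these patterns was not tested.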

How the results depend on the processing

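Of the 9 genes, 1 was called in KA, 3 in KI, 2 in the difference between models and 0 between the shams. In that order of KA, KI and difference, DESeq2 called 2, 5 and 5, and limma-voom with quality weights 3, 6 and 6, beside 1.91%, 22.3% and 8.39% of all genes with DESeq2 and 5.44%, 55.1% and 35.8% with limma-voom. With a ribosomal protein score as covariate the counts were 2, 1 and 5 (1.54%, 0.787% and 7.68% of all genes). Leaving out KI sham 3 and KI sham 4 together gave 2 in KA and 1 in the difference. RLE factors gave 2 in KA. Each model fitted alone gave 0 in KA, and leaving out the 3 libraries rich in ribosomal RNA-like genes gave 0 in KA and 0 in KI. The replicate block gave 0, 0 and 0 calls, with Mmp9 in KI at 3.01 (adjusted p = 0.121) and Mmp11 in KA at 0.82 (adjusted p = 0.989). Whether the replicate numbers pair the libraries is not known. Over all genes the block called 3 in KA, 0 in KI and 11 in the difference. Leaving out each library in turn gave 0 to 3 calls in KA, 0 to 4 in KI and 0 to 4 in the difference, and 0 between the shams throughout. Upper quartile factors moved the median of all genes in KI to -0.10 and its calls from 632 higher and 700 lower to 333 and 978.

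Some signs turned, among changes that were not called in the reported fit. In KI Plat was -0.017 with upper quartile factors, -0.036 with limma-voom and -0.15 with the ribosomal protein score, and Timp2 was -0.034 with upper quartile factors, -0.017 without the 3 libraries rich in ribosomal RNA-like genes and -0.10 with the ribosomal protein score. With limma-voom Mmp2 in KA was -0.13, Plaur in KA -0.14 and Mmp11 in KI 0.027, and between the shams Mmp3 was -0.79, Mmp14 0.025, Plaur 0.065 and Plat 0.017. Without KI sham 3 and KI sham 4 the sham differences of Mmp14, Plau and Plaur were 0.092, 0.55 and 0.33. Single omissions took Plaur in KA from -0.49 to 1.08, Plat in KI from -0.019 to 0.083, Timp2 in KI from -0.10 to 0.14, and the sham differences of Mmp3 from -0.27 to 1.28, Mmp14 from -0.49 to 0.030, Plaur from -0.39 to 0.16 and Timp2 from -0.056 to 0.19. The causes were not tested. Depths from 30925368 counts upward left Mmp3 at under 10 counts in most shams.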
